A study of Kluyveromyces lactis with 8 samples.

Results

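A set of 33 genes of the milk yeast Kluyveromyces lactis stood higher in cells lacking SIR2 than in both wild-type cells and cells lacking SUM1. The set was picked from 5076 genes on measured values: an average across all 8 libraries of 1 FPKM or more, and a mean log2(FPKM + 1) in the SIR2 deletion at least 0.7 above WT and at least 0.7 above the SUM1 deletion. FPKM is fragments per kilobase of gene and M fragments. The first threshold was met by 415 genes, the second by 154, and 33 met both. SUM1 met both thresholds as well and was set aside, because its 0 FPKM in each library of its own deletion fixes the second difference.

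The groups were sir2∆ (strain LRY2850), sum1∆ (LRY3098), sir4∆ (LRY3096) and WT (LRY2835), each with 2 libraries. All 4 strains were MATa haploids that also lacked the silent mating cassettes, with the genotype hmr∆ hml∆, so no strain carried the classical Sir2 targets HML and HMR. Cultures in rich glucose medium (YPD) were started at an OD of 0.3 and collected at an OD of 1 after shaking at 30 °C, in early log phase. The series design describes the 2 libraries of a group as technical replicates, so p-values measure the spread between libraries and not that between cultures, and each deletion is represented by 1 strain.

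Sir2 is a deacetylase that uses NAD and removes acetyl groups from histones, which keeps chromatin silent. In the related yeast Saccharomyces cerevisiae, Sir2 works with Sir4 and Sir3 at the silent mating cassettes and at telomeres, while a duplicate of it, Hst1, is brought by the DNA-binding repressor Sum1 to genes of middle sporulation. K. lactis split off before that duplication, and its undivided Sir2 serves with both kinds of partner. A gene released by loss of Sir2 but not to the same extent by loss of Sum1 is therefore of interest for the question of where Sir2 acts apart from Sum1.

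Depth, as estimated reads on genes, ranged from 10.1 to 26.2 M per library. In sum1∆ the deleted gene had 0 FPKM in each library, against 31.2 and 28.0 FPKM in WT. KLLA0F14663g, which has no symbol, had 0.0513 and 0 FPKM in sir2∆, while the other 6 libraries had 56.3 to 73.2 FPKM. It was singled out for these values, and no symbol links it to SIR2. The receptor genes of a and alpha cells, STE2 and STE3, were both low in all libraries. STE2 had between 8.10 and 10.1 FPKM and STE3 between 11.0 and 18.2 FPKM, so they did not set the mating type apart. Other a-specific genes were not as even. At the limma thresholds given below, 3 of 6 tested a-specific genes were called higher than WT in sir2∆ (4.9% of all genes tested). In sum1∆ 3 were called higher too (7.73% of all genes tested). AGA2 had a mean of 5.37 FPKM in WT, 240 FPKM in sir2∆ and 281 FPKM in sum1∆. Chromosome positions below are ranks in the gene order of assembly ASM251v1, counted from the nearest chromosome end.

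The 33 genes spanned sir2∆ minus WT differences of 0.72 to 3.82 on the log2(FPKM + 1) scale, with a median of 1.21, and sir2∆ minus sum1∆ differences of 0.72 to 4.84, with a median of 1.51. The median over all 5022 genes tested was -0.01 and -0.03 for these differences. In 30 of the 33 genes both sir2∆ libraries lay above the other 6 libraries. The same count over all genes tested was not made, and the sir2∆, WT and sum1∆ values chose the genes. With limma, at an adjusted p below 0.05 and a log2 fold of at least 1, 24 of the 33 were called higher in sir2∆ than in WT (4.9% of all genes tested) and 26 higher in sir2∆ than in sum1∆ (1.73% of all genes tested). These differences chose the genes, so the counts only describe them.

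**Figure D1:**
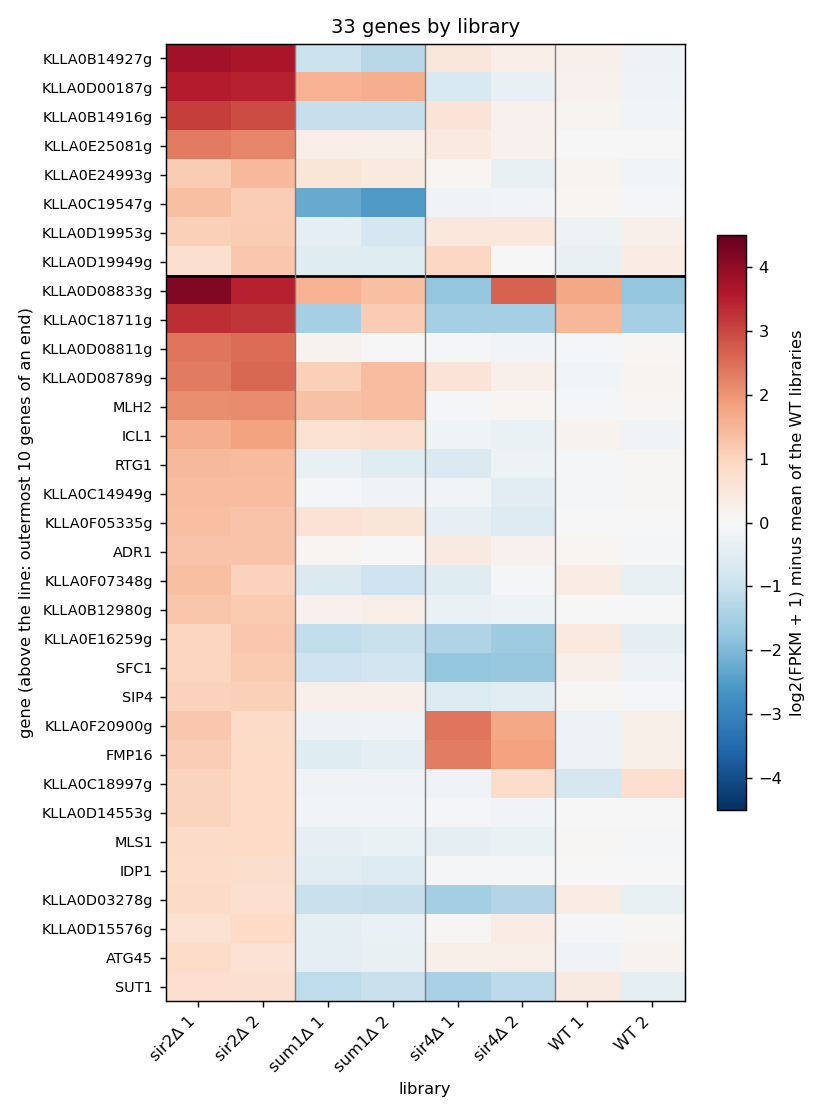
Colour gives log2(FPKM + 1) minus the mean of the WT libraries for each of the 33 genes (rows) in each of the 8 libraries (columns), with the 8 genes among the outermost 10 of a chromosome end above the black line. Both sir2∆ columns are red in every row, the sum1∆ columns are blue or pale in most rows, and FMP16 and KLLA0F20900g are the rows whose sir4∆ columns are redder than their sir2∆ columns.

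Near the thresholds, SUT1, ATG45 and KLLA0D15576g entered with sir2∆ minus WT differences of 0.72, 0.75 and 0.78, and KLLA0E09021g, KLLA0A11352g and KLLA0A03223g stayed out at 0.70 (0.698 before rounding), 0.67 and 0.66. On the other threshold KLLA0F05335g, MLH2 and KLLA0E24993g entered with sir2∆ minus sum1∆ differences of 0.72, 0.76 and 0.80, and KLLA0B14817g, KLLA0D07744g and the meiotic recombination gene SPO11 stayed out at 0.69, 0.69 and 0.68.

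**Figure D2:**
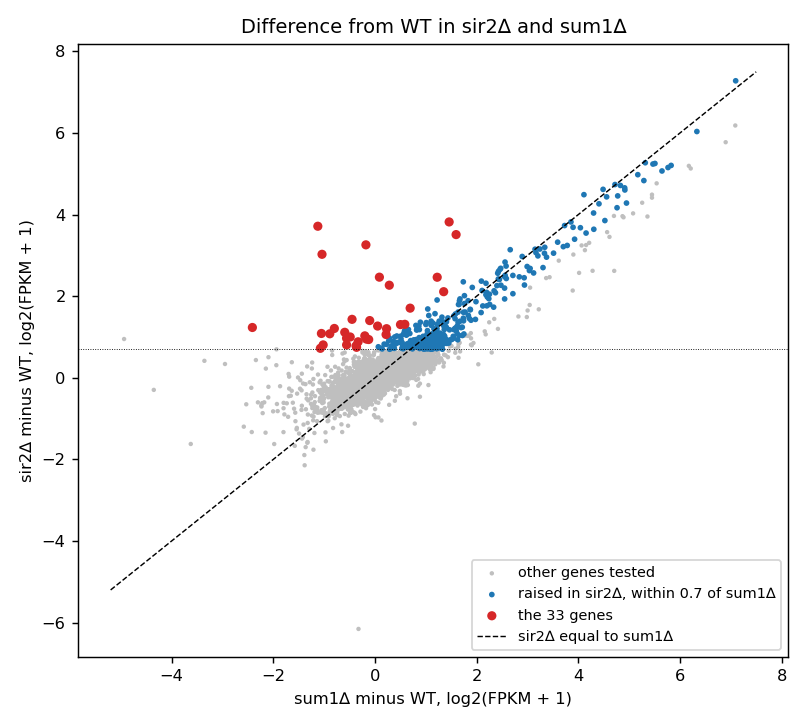
Each point is a gene tested, placed by its sum1∆ minus WT difference (x axis) and its sir2∆ minus WT difference (y axis), both in log2(FPKM + 1), with the dashed line where the deletions are equal and the dotted line at 0.7. The 33 genes (red) lie above the blue cloud of 330 genes that were raised in sir2∆ and within 0.7 of sum1∆.

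Place on the chromosome was not used to choose the genes. Of the 33, 8 lay among the outermost 10 protein-coding genes of a chromosome end, or 24.2%, against 1.67% of all genes tested (84 of 5022). Of the 330 genes raised in sir2∆ by at least 0.7 and within 0.7 of sum1∆, 10 lay there, or 3.03%. With a window of 5 genes the shares were 18.2%, 0.597% and 1.52%, and with 20 genes 30.3%, 3.90% and 5.76%. The 8 genes came from 5 of the 12 ends: the right ends of chromosomes B, C, D and E and the left end of D. By chromosome, the 33 genes made up between 0.201% of the genes tested on A (1 of 497) and 1.11% on D (9 of 808), with 0.657% over all chromosomes.

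None of these 8 end genes has a symbol, and their function is not given in the sources used here. Close to chromosome ends, genes often belong to families of similar copies, and reads of near-identical copies could not be told apart here. Of the 120 outermost genes, 36 were too low to be tested, with a mean below 1 FPKM. That mean includes the sir2∆ libraries, so a low end gene could pass through its sir2∆ values alone. The share of 1.67% counts only genes that passed, and the part of this filter in the comparison was not tested.

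The right end of chromosome B held the widest gap between the deletions. KLLA0B14927g, gene 2 from the end, had 33.3 and 30.8 FPKM in sir2∆, 0.272 and 0.0460 FPKM in sum1∆, 2.61 and 2.09 FPKM in sir4∆, and 1.96 and 1.13 FPKM in WT. Its neighbour KLLA0B14916g, gene 3 from the end, had 17.0 and 14.6 FPKM in sir2∆, 0 FPKM in each of the sum1∆ libraries, 2.06 and 1.38 FPKM in sir4∆, and 1.22 and 0.911 FPKM in WT. In both genes the sir2∆ libraries were far above all others, the sir4∆ libraries were slightly above WT, and the sum1∆ libraries were below WT. The reads behind the low values were few: KLLA0B14927g had an estimated 279 and 552 reads in sir2∆, 5 and 1 in sum1∆, 19 and 17 in sir4∆, and 32 and 10 in WT.

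The sir2∆ minus WT differences were 3.72 (SE 0.19) and 3.03 (SE 0.19) for KLLA0B14927g and KLLA0B14916g. Further in, the neighbours KLLA0B14883g, KLLA0B14861g and KLLA0B14839g were abundant and were lower in sir2∆ than in WT. KLLA0B14883g had 712 and 563 FPKM in sir2∆, 189 and 199.7 FPKM in sum1∆, 1128 and 1012 FPKM in sir4∆, and 942 and 981 FPKM in WT. The sir2∆ minus WT differences of these 3 neighbours were -0.60, -0.63 and -0.75, so the genes directly inward of the pair went the other way. The next gene inward, KLLA0B14817g, missed the set narrowly, with 0.76 for sir2∆ minus WT and 0.69 for sir2∆ minus sum1∆. The outermost gene, KLLA0B14949g, was listed at 0 in 7 libraries and at 0.128 FPKM in sir2∆ replicate 2.

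The right end of chromosome E held KLLA0E25081g, gene 3 from the end, and KLLA0E24993g, gene 5 from the end. KLLA0E25081g had 13.5 and 12 FPKM in sir2∆, 2.46 and 2.45 FPKM in sum1∆, 2.85 and 2.26 FPKM in sir4∆, and 1.81 and 1.88 FPKM in WT. Its sum1∆ and sir4∆ libraries lay slightly above WT, with differences of 0.28 (SE 0.14) and 0.32 (SE 0.14) that did not pass limma's test (adjusted p = 0.0996 and adjusted p = 0.101). KLLA0E24993g was lower throughout, with 4.82 and 6.17 FPKM in sir2∆, 2.82 and 2.59 FPKM in sum1∆, 1.78 and 1.08 FPKM in sir4∆, and 1.84 and 1.41 FPKM in WT. The gene between them, KLLA0E25015g, had 9.55 and 8.77 FPKM in sir2∆, against 6.31 and 5.82 FPKM in WT, a difference of 0.52 that kept it out of the set. The outermost pair, KLLA0E25147g and KLLA0E25180g, showed sir2∆ minus WT differences of -0.22 and -0.39.

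KLLA0D00187g, gene 3 from the left end of chromosome D, had the highest sir2∆ FPKM of the 8 end genes in the set. It had 258 and 254 FPKM in sir2∆, 65.9 and 68.6 FPKM in sum1∆, 13.1 and 16.9 FPKM in sir4∆, and 24.6 and 18.9 FPKM in WT. The sum1∆ libraries lay between sir2∆ and WT, and the sir4∆ libraries lay below WT. It was the only gene of the outermost 10 at that end that was tested. The right end of D held the adjacent KLLA0D19953g and KLLA0D19949g, genes 6 and 7 from the end. KLLA0D19953g had 13.8 and 14.4 FPKM in sir2∆, 4.13 and 3.15 FPKM in sum1∆, 8.58 and 8.64 FPKM in sir4∆, and 4.90 and 7.22 FPKM in WT. KLLA0D19949g had 12.8 and 18.1 FPKM in sir2∆, but its sir4∆ libraries, at 14.7 and 7.40 FPKM, overlapped them, with 4.62 FPKM in each sum1∆ library and 5.62 and 9.36 FPKM in WT.

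KLLA0C19547g, the last gene at the right end of chromosome C, was, like the pair on B, lower in sum1∆ than in WT. It had 36.9 and 31.0 FPKM in sir2∆, 2.07 and 1.52 FPKM in sum1∆, 12.2 and 12.5 FPKM in sir4∆, and 14.6 and 13.0 FPKM in WT. The sum1∆ libraries lay below WT by more than the sir2∆ libraries lay above it, with log2 differences of -2.41 (SE 0.13) and 1.23 (SE 0.13). The next gene inward, KLLA0C19437g, had 102 and 99.3 FPKM in sir2∆, 18.2 and 19.2 FPKM in sum1∆, 38.0 and 32.6 FPKM in sir4∆, and 86.9 and 85.1 FPKM in WT. It was near WT in sir2∆ and thus outside the set.

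**Figure D3:**
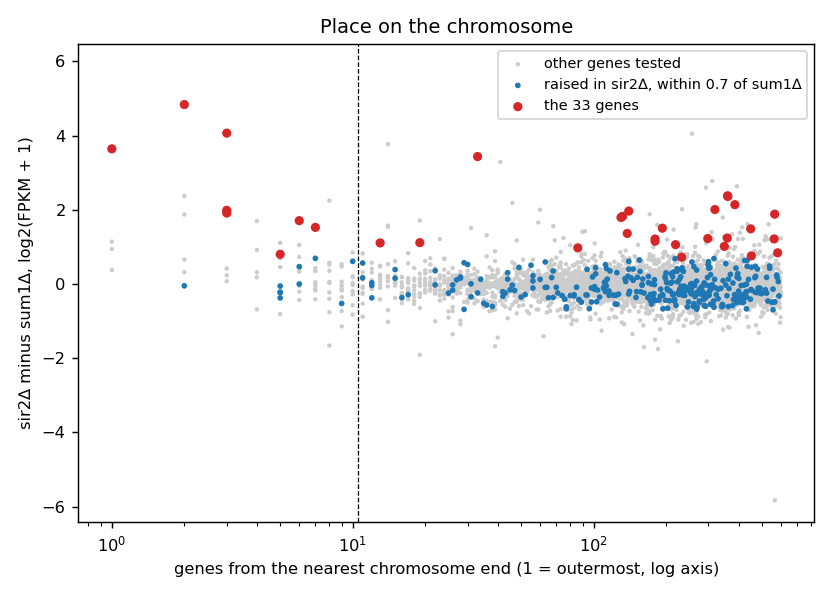
The sir2∆ minus sum1∆ difference in log2(FPKM + 1) (y axis) is plotted against the number of genes from the nearest chromosome end (x axis, log scale) for all genes tested, with the dashed line after the outermost 10. Red points, the 33 genes, include 8 left of the line.

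The 76 tested end genes outside the set moved in both directions. Limma called 9 higher and 8 lower in sum1∆ than in WT, where 7.73% and 2.87% of all genes tested were called. It called 8 higher and 1 lower in sir2∆ than in WT, where 4.9% and 0.717% of all genes tested were called. Their median differences were -0.17 for sum1∆ minus WT and 0.00 for sir2∆ minus WT. With the 8 genes of the set included, 20 of the 84 had a sir2∆ minus WT difference of at least 0.7, and 10 of these 20 stood within 0.7 of sum1∆.

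**Figure D4:**
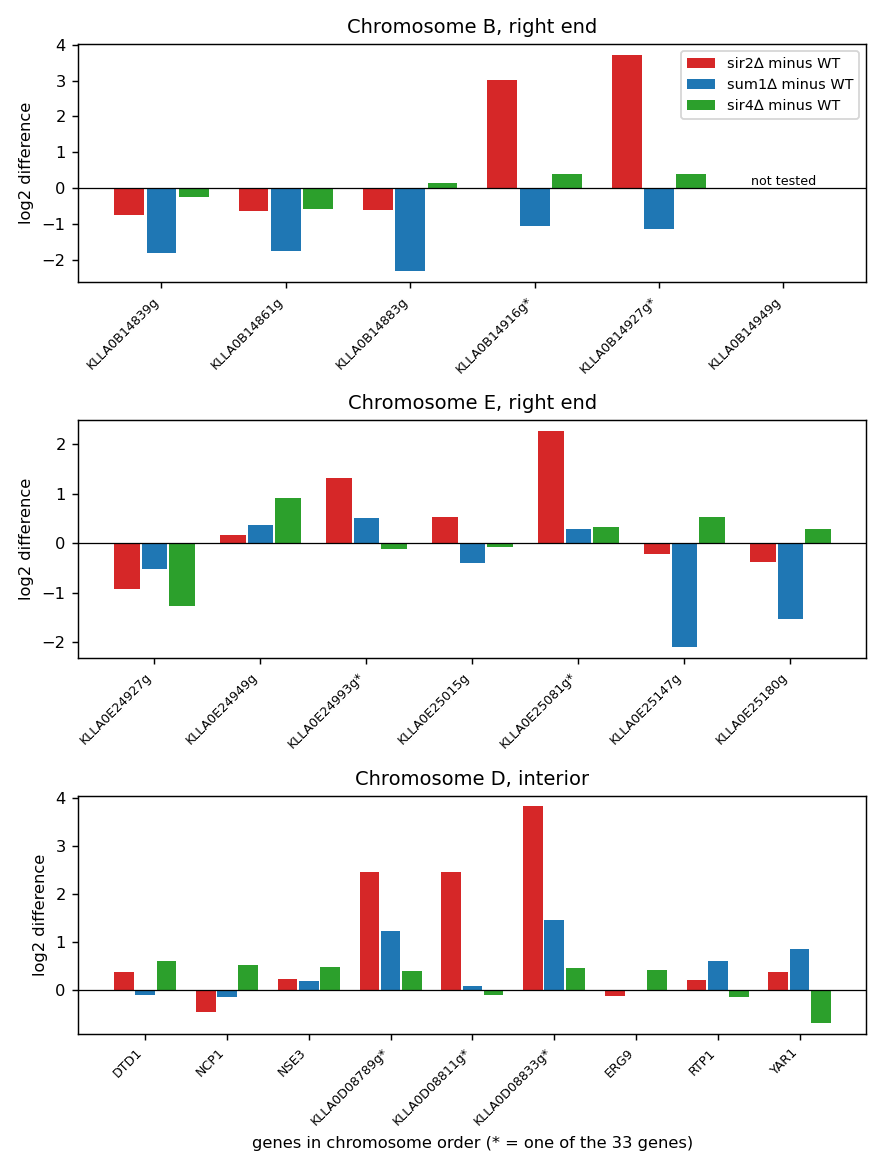
Bars give the difference from WT in log2(FPKM + 1) for sir2∆ (red), sum1∆ (blue) and sir4∆ (green) for genes in chromosome order at the right end of B, the right end of E and an interior stretch of D. The starred genes, members of the set, stand out in red while the genes beside them do not.

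The other 25 genes lay further in, between the 13th gene from an end (ATG45) and the 581st (SIP4). A block of 3 adjacent genes stood in the interior of chromosome D, between NSE3, which encodes a subunit of the Smc5-Smc6 complex, and ERG9, which encodes squalene synthase. KLLA0D08811g, the middle gene, had 264 and 279.9 FPKM in sir2∆, 54.2 and 48.8 FPKM in sum1∆, 46.7 and 43.8 FPKM in sir4∆, and 46.1 and 50.7 FPKM in WT. Both sum1∆ and both sir4∆ libraries were close to WT (differences 0.09 and -0.10, each with SE 0.08), while the sir2∆ difference was 2.47. KLLA0D08789g had 45.9 and 54.0 FPKM in sir2∆, 18.3 and 23.0 FPKM in sum1∆, 12.6 and 9.72 FPKM in sir4∆, and 7.48 and 8.98 FPKM in WT, so its sum1∆ libraries lay between the sir2∆ and WT libraries.

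KLLA0D08833g, the last gene of the block, has a coding length of 126 bases and gave uneven values. It had 57.8 and 36.0 FPKM in sir2∆, 8.79 and 7.43 FPKM in sum1∆, 0 and 19.8 FPKM in sir4∆, and 9.91 and 0 FPKM in WT. NSE3 and ERG9 had sir2∆ minus WT differences of 0.23 and -0.12, so the high values ended at the block's borders. In all, 7 of the 33 genes (21.2%) lay next to another of the set: these 3, the pair on B and the pair at the right end of D. Of the 330 genes raised alike in sir2∆ and sum1∆, 55 (16.7%) lay next to another of the 330. Adjacent genes thus occurred in both sets. The sets differ in size, and a larger set holds more adjacent genes by placement alone, so the shares cannot be compared directly. Whether either share exceeds that of randomly placed genes was not tested.

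RTG1, which in S. cerevisiae encodes a transcription factor of signalling from mitochondria to the nucleus, lay beside KLLA0F14663g, the gene listed at or near 0 in sir2∆. RTG1 had 40.3 and 39.5 FPKM in sir2∆, 10.9 and 9.34 FPKM in sum1∆, 8.71 and 11.9 FPKM in sir4∆, and 13.7 and 14.6 FPKM in WT. TRS65 and RPT2, on the far sides of this pair of genes, had sir2∆ minus WT differences of -0.38 and 0.10. Whether the altered gene next door had a part in the RTG1 value was not tested.

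Some of the genes with a symbol serve growth on carbon sources other than glucose. Of 26 tested genes of a list on gluconeogenesis, the glyoxylate cycle and alternative carbon, 5 were in the set: ICL1, MLS1, SFC1, SIP4 and ADR1. ICL1 encodes isocitrate lyase and MLS1 malate synthase, the pair of enzymes that define the glyoxylate cycle. ICL1 had 27.6 and 31.3 FPKM in sir2∆, 13.8 and 14.3 FPKM in sum1∆, 7.12 and 6.55 FPKM in sir4∆, and 9.37 and 7.35 FPKM in WT. MLS1 had 30.2 and 30.9 FPKM in sir2∆, 12.3 and 12.8 FPKM in sum1∆, 12 and 12.9 FPKM in sir4∆, and 16.8 and 15.4 FPKM in WT. The sum1∆ libraries were thus above WT in ICL1 and below WT in MLS1.

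SFC1 encodes the mitochondrial carrier that exchanges succinate for fumarate. It had 218 and 250.1 FPKM in sir2∆, 57.7 and 60.2 FPKM in sum1∆, 31.9 and 33.2 FPKM in sir4∆, and 129 and 94.0 FPKM in WT. Only its sir2∆ libraries were above WT, and the sum1∆ and sir4∆ libraries were all below. SIP4 and ADR1 encode activators of glucose-repressed genes in S. cerevisiae. SIP4 had 14.9 and 15.2 FPKM in sir2∆, 7.99 and 7.90 FPKM in sum1∆, 4.0 and 4.35 FPKM in sir4∆, and 6.92 and 6.45 FPKM in WT. ADR1 had 18.5 and 18.6 FPKM in sir2∆, 7.66 and 7.15 FPKM in sum1∆, 9.77 and 8.28 FPKM in sir4∆, and 7.69 and 6.55 FPKM in WT.

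The counts over the rest of that list were different. Among its other 21 genes, limma called 0 higher and 1 lower in sir2∆ than in WT, with a median difference of -0.20 (3 higher and 11 lower at an unadjusted p below 0.05), beside 4.9% and 0.717% of all genes tested. It called 0 higher and 9 lower in sum1∆ than in WT, with a median of -0.98 (1 higher and 16 lower at an unadjusted p below 0.05), beside 7.73% and 2.87% of all genes tested. These 21 are what the selection left, so the counts describe them only. FBP1, which encodes the gluconeogenic fructose bisphosphatase and lies outside the set, had a sum1∆ minus WT difference of -2.43 and a sir2∆ minus WT difference of -0.25.

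IDP1, the gene of mitochondrial NADP-dependent isocitrate dehydrogenase, had 166 and 162 FPKM in sir2∆, 66.2 and 59.8 FPKM in sum1∆, 88.0 and 88.9 FPKM in sir4∆, and 92.7 and 93.5 FPKM in WT. MLH2, which encodes a MutL homolog of DNA mismatch repair and meiotic recombination, was the only gene of the set among 25 tested genes of the early meiosis list. It had 39.3 and 39.6 FPKM in sir2∆, 22.4 and 23.4 FPKM in sum1∆, 7.93 and 8.83 FPKM in sir4∆, and 7.99 and 8.75 FPKM in WT. The sir2∆ and sum1∆ libraries were all far above WT here, and the gap between these deletions was just past the threshold. None of the 29 tested genes of middle and late sporulation was in the set. Limma called 20 of them higher in sir2∆ than in WT (4.9% of all genes tested). It called 22 higher in sum1∆ than in WT (7.73% of all genes tested). Of the 19 lists examined, 17 held none of the 33 genes, among them silencing factors, histones, mating genes and NAD metabolism. The set made up 0.657% of all genes tested, so a list of this size without a member says little about the set.

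The genes without a symbol numbered 22 of 33, and 33.3% had a symbol, against 78.8% of all genes tested and 58.5% of the 330 genes raised alike. WT levels were low, with a median of 15.3 FPKM over the 33 genes, 18.5 FPKM over the 330 and 63.2 FPKM over all genes tested. The WT libraries were used to choose the 33 and the 330, so these medians are a description. Coding lengths below 300 bases occurred in 5 of the 33 genes (15.2%), against 5.45% of the 330 and 2.71% of all genes tested. KLLA0C18711g, with a coding length of 165 bases, had 26.8 and 25 FPKM in sir2∆, 0 and 5.16 FPKM in sum1∆, 0 and 0 FPKM in sir4∆, and 6.88 and 0 FPKM in WT. KLLA0C18997g, with 345 bases, had 4.58 and 4.27 FPKM in sir2∆, against 0.672 and 3.72 FPKM in WT, and was the gene of the set that did not pass limma's adjusted p in sir2∆ against WT (adjusted p = 0.116 with limma).

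The level in sum1∆ split the set. With both groups used by the selection, this is a description. In 21 of the 33 genes the sum1∆ mean was within 0.7 of WT on the log2 scale, in 4 it was at least 0.7 above, and in 8 at least 0.7 below, with a median of -0.20. Limma called 3 of the 33 higher in sum1∆ than in WT (7.73% of all genes tested) and 6 lower (2.87% of all genes tested). Without the fold threshold the counts were 6 higher and 14 lower, against 33.6% and 32.6% of all genes tested. The 3 higher genes, KLLA0D00187g (1.60), MLH2 (1.35) and KLLA0D08789g (1.22), kept a level between WT and sir2∆. The log2(FPKM + 1) scale understates the change of KLLA0B14927g and KLLA0B14916g, at 0 to 0.272 FPKM in sum1∆ and 0.911 to 1.96 FPKM in WT. On this scale the 6 lower genes were KLLA0C19547g (-2.41), KLLA0B14927g (-1.12), SUT1 (-1.07), KLLA0E16259g (-1.05), KLLA0B14916g (-1.04) and KLLA0D03278g (-1.02). All but KLLA0C19547g lay just past the fold threshold, and without WT replicate 1 it was the only gene of the set called lower, while a pseudocount of 5 left 2.

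**Figure D5:**
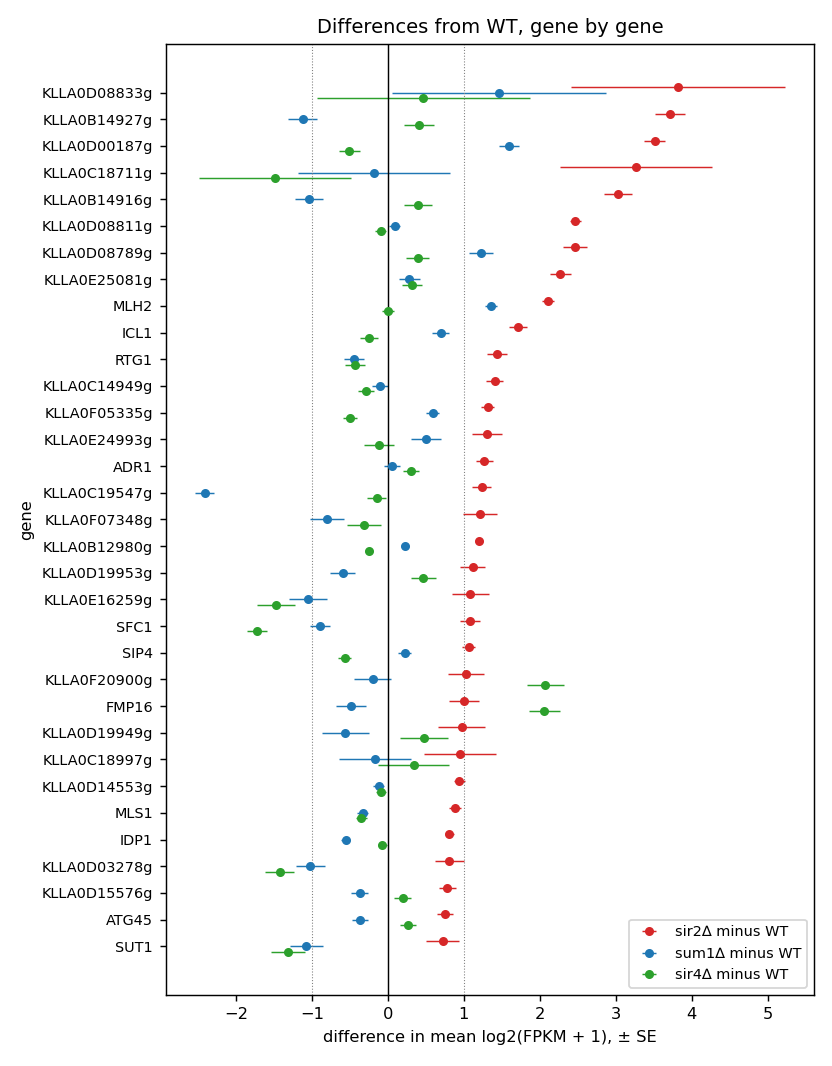
For each of the 33 genes (rows) the points give the difference from WT in mean log2(FPKM + 1), with bars of ± SE from the fit over 2 libraries a group, for sir2∆ (red), sum1∆ (blue) and sir4∆ (green). Red points start at 0.72, and the green points are within 0.7 of 0 in 26 genes, with FMP16 and KLLA0F20900g right of the upper dotted line at 1.

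The sir4∆ libraries entered the filter on the average of all 8 libraries but not the thresholds of 0.7. The WT libraries they are compared with were used for a threshold. In 26 of the 33 genes sir4∆ was within 0.7 of WT on the log2 scale, with a median difference of -0.10 over the set and -0.01 over all genes tested. The share of all genes tested within 0.7 was not counted, so whether the 26 set these genes apart cannot be said. Limma called 2 genes of the set higher in sir4∆ than in WT (0.617% of all genes tested) and 4 lower (0.737% of all genes tested). Without the fold threshold 2 were higher and 10 lower, against 16.8% and 20.9% of all genes tested. Of the 330 genes raised alike in sir2∆ and sum1∆, 4 were called higher and 10 lower in sir4∆. Both sir4∆ libraries lay above both WT libraries in 9 of the 33 genes and below them in 15, against 33.6% and 36.2% of all genes tested.

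None of the 8 end genes was called in sir4∆ against WT with limma (0.617% higher and 0.737% lower of all genes tested). At an unadjusted p below 0.05, 2 of the 8 were higher and 1 lower, against 1106 and 1295 of the 5022 genes tested. Counts this small over 8 genes do not set them apart. Their differences ran from -0.51 for KLLA0D00187g to 0.47 for KLLA0D19949g, and the median was 0.35. The pair on chromosome B, KLLA0B14927g and KLLA0B14916g, had sir4∆ minus WT differences of 0.41 (SE 0.19, adjusted p = 0.133) and 0.39 (SE 0.19, adjusted p = 0.132 with limma). KLLA0D00187g passed the adjusted p (0.0197) but not the fold threshold. In sir2∆ against sir4∆, 6 of these 8 genes were called higher in sir2∆ (8.74% of all genes tested). KLLA0D19953g and KLLA0D19949g were the exceptions (0.65 and 0.50). The sir2∆ libraries were chosen for being high, so this count is a description.

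FMP16 and KLLA0F20900g rose in sir4∆ and stood higher there than in sir2∆. FMP16, which in S. cerevisiae encodes a mitochondrial protein of unknown function, had 948 and 660.0 FPKM in sir4∆, against 156 and 229 FPKM in WT (log2 difference 2.06, SE 0.20, adjusted p = 0.000703 with limma). It had 406 and 355 FPKM in sir2∆ next to 129.9 and 139.6 FPKM in sum1∆. KLLA0F20900g had 136 and 83.6 FPKM in sir4∆, against 20.1 and 29.9 FPKM in WT (log2 difference 2.07, SE 0.24, adjusted p = 0.000932 with limma), with 57.8 and 45.2 FPKM in sir2∆ next to 20.9 and 21.6 FPKM in sum1∆. In both genes the sir4∆ libraries were the highest of all 8. These 2 genes were called lower in sir2∆ than in sir4∆ (-1.06 and -1.05), but neither was called without sir4∆ replicate 1, without sir2∆ replicate 2, or with depth class as a term.

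SFC1, KLLA0E16259g, KLLA0D03278g and SUT1 fell in sir4∆. SFC1 had a log2 difference of -1.73 (SE 0.13, adjusted p = 0.000564 with limma). KLLA0E16259g had 22.6 and 19.1 FPKM in sir4∆, against 81.8 and 43.3 FPKM in WT (-1.47, SE 0.25, adjusted p = 0.00296 with limma), and 118 and 138 FPKM in sir2∆ next to 27.4 and 29.0 FPKM in sum1∆. KLLA0D03278g had 10.2 and 12.1 FPKM in sir4∆, against 40.4 and 24.6 FPKM in WT (-1.42, SE 0.19, adjusted p = 0.00141 with limma), and 58.1 and 53.9 FPKM in sir2∆ next to 15.1 and 15 FPKM in sum1∆. The 4 genes shared a pattern of values: highest in sir2∆, intermediate in WT, and lower in both sum1∆ and sir4∆.

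SUT1, which in S. cerevisiae encodes a transcription factor of sterol uptake, had 40.0 and 48.5 FPKM in sir4∆, against 147 and 83.9 FPKM in WT (-1.31, SE 0.22, adjusted p = 0.00288 with limma), and lost its call without WT replicate 1 (-0.92). It had 186 and 182 FPKM in sir2∆ next to 50.3 and 54.3 FPKM in sum1∆. In all 4 of these genes WT replicate 1 was above WT replicate 2, and the part of that spread in the result was not tested beyond leaving out each library. In sir2∆ against sir4∆, 23 genes of the set were called higher (8.74% of all genes tested) and 2 lower (3.23% of all genes tested), a description because the sir2∆ libraries were chosen for being high.

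The remaining genes were not among the end genes, although ATG45 lay close to an end, as gene 13 from the right end of chromosome F. ATG45, which in S. cerevisiae encodes a receptor for the autophagy of glycogen, had 207 and 182 FPKM in sir2∆, 87.3 and 91.8 FPKM in sum1∆, 140.0 and 137 FPKM in sir4∆, and 103 and 129 FPKM in WT, so sum1∆ lay below WT and sir4∆ above. Among genes without a symbol, KLLA0C14949g had 53.9 and 53.9 FPKM in sir2∆, 19.1 and 17.6 FPKM in sum1∆, 18.0 and 14.1 FPKM in sir4∆, and 19.0 and 20.6 FPKM in WT. KLLA0D14553g had 31.5 and 29.0 FPKM in sir2∆, 14.0 and 13.9 FPKM in sum1∆, 14.7 and 13.9 FPKM in sir4∆, and 15.4 and 15.2 FPKM in WT. In these 2 genes, as in KLLA0D08811g, the sum1∆ and sir4∆ means both lay within 0.3 of WT on the log2 scale. KLLA0B12980g joined them, with 124 and 119 FPKM in sir2∆, 60.0 and 62.5 FPKM in sum1∆, 42.6 and 44.5 FPKM in sir4∆, and 52.2 and 52.0 FPKM in WT.

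KLLA0F05335g, KLLA0F07348g and KLLA0D15576g complete the set. KLLA0F05335g had 59.9 and 56.7 FPKM in sir2∆, 36.2 and 33.7 FPKM in sum1∆, 17.4 and 14.5 FPKM in sir4∆, and 23.4 and 22.4 FPKM in WT, so the sum1∆ libraries lay above WT and the sir4∆ libraries below. KLLA0F07348g, with a coding length of 264 bases, had 100.4 and 80.6 FPKM in sir2∆, 23.8 and 19.6 FPKM in sum1∆, 26.2 and 35.8 FPKM in sir4∆, and 48.1 and 30.5 FPKM in WT. KLLA0D15576g, with 255 bases, had 129 and 149 FPKM in sir2∆, 58.3 and 65.3 FPKM in sum1∆, 82.2 and 102 FPKM in sir4∆, and 77.2 and 83.2 FPKM in WT. In KLLA0F07348g and KLLA0D15576g the sum1∆ libraries were below WT and the sir4∆ libraries overlapped WT.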

How the data were processed

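The authors deposited FPKM for 5076 genes in each of 8 libraries. TopHat2 2.0.10 and Cuffnorm 2.2.1 are named in the submitters' processing notes, and the sources used here give neither build nor annotation. Per the labels' protocols, libraries came from DNase-treated total RNA with a kit that does not mark strand, read as single 50-base reads, so overlapping and antisense genes cannot be told apart. All 5076 identifiers matched locus tags of ASM251v1, used for symbols, lengths (97.8% multiples of 3, so coding lengths) and gene order.

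The 5022 genes whose 8 libraries averaged 1 FPKM or more entered a limma fit (version 3.58.1, R 4.3.3) of log2(FPKM + 1) over all 4 groups, with a trend on mean level (4 residual and 4.02 prior degrees of freedom) and Benjamini-Hochberg adjustment over all genes tested. This scale understates changes of low genes. Calls need a log2 fold of at least 1 in either direction and an adjusted p below 0.05. The code was tested on simulated data. Figures and counts used Python 3.11.15, numpy 2.4.6, pandas 2.3.3 and matplotlib 3.10.9.

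Read numbers were derived from the step size of low FPKM (fragment mean 200, SD 80 bases): 95.7% to 100% of low values were whole within 0.1. Within groups, libraries differed beyond counting error (chi-square per degree of freedom 4.67 to 16.8). For the depth term, the deep class held both sum1∆ libraries, sir2∆ replicate 2 and WT replicate 1.

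The 33 genes and the 19 gene lists were chosen with earlier results of these data known. The genes named were the members by rule: the largest differences, those with a symbol, at chromosome ends, adjacent, on lists, called in sir4∆ or near the thresholds. The other members are given for completeness, and their neighbours were chosen after their values were seen.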

Additional observations from a re-analysis of the deposited data

How the results depend on the processing

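Counts of calls over the 33 genes were recomputed under other pseudocounts (0.1 and 5), filters, scalings, a depth term and without each library. They stayed within 1.5 times their value except as follows. Without the fold threshold 10 genes were lower in sir4∆ than in WT, and 6 higher and 14 lower in sum1∆ than in WT. With a pseudocount of 5, 2 genes were lower in sum1∆ than in WT and 1 lower in sir2∆ than in sir4∆. Leaving out a library gave 1 (without WT replicate 1) to 8 (without WT replicate 2) genes lower in sum1∆, and 0 to 2 lower in sir2∆ than in sir4∆. With depth class as a term that last count was 0. The causes were not tested. Thresholds of 1 in place of 0.7 chose 19 genes, all of them among the 33, and leaving out a library chose 33 to 38, of which 30 to 33 were shared. A pseudocount of 0.1 chose 38, with all 33 among them, and a pseudocount of 5 chose 28, all among the 33. Quantile normalization chose 32, of which 28 were shared, and moved the median of all genes by less than 0.1 in each comparison.

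The shared replicate numbers did not pair the libraries: same-numbered deviations correlated between -0.251 (WT and sir4∆) and 0.025 (WT and sum1∆) over genes. With the replicate number as a block the sir4∆ counts were 2 higher and 4 lower, the sum1∆ counts 3 and 6, the sir2∆ count against WT 23, that against sum1∆ 26, and those against sir4∆ 23 and 2. Crossing the WT numbers in the block, chosen after seeing the data, gave 2 and 4, 3 and 6, 24, 26, and 24 and 2. Limited to coding lengths of at least 300 bases, also chosen after seeing the data, 8 genes lay among the outermost 10.

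Genes at a few reads per library, as KLLA0B14927g in sum1∆, limit what can be read from their low levels.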
